A study of Mesocricetus auratus with 21 samples.

Results

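RNA-seq of whole testes compared *Mov10l1*-/- with *Mov10l1*+/+ golden hamsters (*Mesocricetus auratus*) at 13 days post partum (d.p.p.), with 2 libraries of each genotype out of 21 testis libraries in the series. The 4 libraries come from 4 animals, and the animals' names start with a code, F60 or F64, that each knockout shares with a wild type. It is called the litter code here, although the labels do not state its meaning, and replicate 1 is F60 and replicate 2 is F64 in both genotypes. The members are all 22285 genes of the count table, of which 13254 passed the filter on low counts and were tested. Every *Mov10l1*-/- animal is homozygous for the same loss of exon 20, descends from 1 founder female and came from heterozygous parents whose line had been crossed to outbred wild-type hamsters. The wild types carry no edited allele. Libraries of the same 2 genotypes from other ages are used at the end. At 21 d.p.p. there were 2 libraries of each genotype, each from its own animal, and at 0 d.p.p. 2 of each, with both knockouts of 1 litter code. At 9 d.p.p. there were 3 wild-type and 2 knockout libraries, and both knockout libraries carry the name of 1 animal. The adults were wild types of 65 and 23 weeks and knockouts of 63 and 53 weeks.

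MOV10L1 is an RNA helicase of germ cells that hands precursor transcripts to the machinery that makes piRNAs, small RNAs bound by PIWI proteins. PIWI proteins and their piRNAs silence retrotransposons in germ cells and, in mice, their loss arrests male germ cells. A prepubertal testis holds spermatogonia, the mitotic germ cells that later give rise to meiotic spermatocytes, among somatic cells that include Sertoli, peritubular, Leydig and immune cells.

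The allele was made with pairs of guide RNAs that cut the introns on either side of exon 20 of *Mov10l1*, introns 19 and 20. Their DNA targets are shown because they define the knockout, and capitals mark the GGGG that all 4 share at the 3′ end.
intron 19, target 1: gggtatcacatgacttGGGG
intron 19, target 2: ggtgttgggatcatagtGGGG
intron 20, target 1: tctccactcttccatgtGGGG
intron 20, target 2: taccattacatttgtcaGGGG

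Depth differed between the genotypes, with totals of 9278866 and 3550217 counts in the wild types and 14276555 and 34386210 in the knockouts, so that 1 count was worth 0.105 and 0.275 CPM (read counts scaled to library size, with TMM factors) in the wild types and 0.0705 and 0.0305 CPM in the knockouts. Wild-type F64, the shallowest library, stood apart. Its log CPM correlated with the other 3 at 0.857 to 0.917, whereas those 3 correlated with each other at 0.941 to 0.977. The gene with the largest share over the 4 libraries, ENSMAUG00000000004, took 4.1% of its counts against 17.7 to 19.3% in the others. The 10 most abundant genes of each library took 32.7 to 37.6% in the others and 35.6% in wild-type F64. The counts over all genes and over the germ-cell lists are therefore also given without that library.

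*Mov10l1* (gene ENSMAUG00000003667, plus strand of MesAur1.0 scaffold KB708136.1, 11073749 to 11134091) was at 55.0 CPM in wild-type F60 and 108 CPM in wild-type F64. The level was 1.55 CPM in knockout F60 and 0.183 CPM in knockout F64, which is 2.82% and 0.17% of the wild type of the same litter code. The groups did not overlap, and the level left in knockout F60 was above that in knockout F64. On the log2 scale the change was -6.77 (standard error, SE, 0.86), and edgeR's quasi-likelihood test gave an adjusted p of 0.0154. That misses the threshold of 0.01 used to call a gene here but passes 0.05. A fit with the litter code as a block gave -6.87 (SE 0.49, adjusted p = 5.1e-40), and a fit without wild-type F64 -6.32 (adjusted p = 0.0004), both past 0.01 in the same test. The counts cover all exons of the gene, so they check the labels by the level of the transcript and not by the missing exon.

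Among the genes that were lower in the *Mov10l1*-/- testes at an adjusted p under 0.05 were 8 of 14 listed genes of spermatogonia, 7 of 19 of the piRNA pathway, 7 of 18 germ-cell RNA-binding and RNA-export genes, 5 of 15 of the meiotic chromosome axis and recombination and 3 of 8 of later germ cells. Other genes of these lists, such as *Tdrd7*, *Etv5* and *Kcnu1*, did not pass, and no gene was higher. With adjusted p values under 0.01, 16 genes were called lower (0.121% of those tested) and 0 higher (0%), and with those under 0.05, 174 were lower (1.31%) and 0 higher, all by the quasi-likelihood test of edgeR. At an unadjusted p below 0.05 there were 1215 lower and 128 higher. Over all tested genes the median log2 fold change was 0.02. In whole testes, fewer cells of a type and less RNA per cell cannot be told apart.

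The 174 lower genes had a median log2 fold change of -4.27, from -8.37 to -1.70, and 144 of them were at least 8-fold lower and 52 at least 32-fold lower. Their median level in the knockouts was 5.16% of the wild-type mean. In all 174 both knockouts were below both wild types, which was so for 24% of all tested genes. The 174 were picked as lower in these same libraries, so their lack of overlap is no further evidence. In 161 of the 174 (92.5%) wild-type F64 was above wild-type F60, against 49.8% of all tested genes. Symbols, which come from tables that list genes changed at younger ages or in oocytes, were in hand for 101 of the 174 and for 984 of the tested genes. The genes named here therefore lean towards those that the study had already listed. Members of the gene lists need a symbol too, so the lists were drawn almost only from genes already changed in the study's knockouts. Their medians and shares stand beside those of all tested genes, most of which could not be listed.

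The number of calls, and without 1 library their direction, moved with the fit. With the litter code as a block, 458 genes were called lower (3.46%) and 19 higher (0.143%) at 0.01, and these included all 174. That fit leaves 1 residual degree of freedom, so the spread of each gene comes mostly from all genes. DESeq2 called 267 lower (1.66%) and 0 higher, and 166 of the 174 were among them. Without wild-type F64 edgeR called 106 lower (0.772%) and 0 higher, and without knockout F60 181 lower (1.32%) and 0 higher. Without wild-type F60, where wild-type F64 alone stands for its genotype, it called 177 lower and 39 higher at 0.01 and 1377 lower and 1265 higher at 0.05, so the calls at 0.05 then went almost evenly both ways. The 19 genes that were higher with the block rest on wild-type F64. All 19 were lower there than in wild-type F60, 17 of them were more than 3-fold below each of the other 3 libraries, and their smallest adjusted p without the block was 0.15.

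Within each litter code a knockout and a wild type can be set side by side. A ratio of knockout to wild type, on CPM plus 0.5, was at least 2-fold lower in both codes for 505 genes (3.81%) and at least 2-fold higher in both for 8. Opposite changes of that size were seen in 8 genes. At 4-fold the numbers were 149 lower, 0 higher and 0 opposite, and at 8-fold 54 lower and 0 higher. The ratios of F64 were wider than those of F60, as 2002 genes were at least 2-fold lower and 1624 at least 2-fold higher in F64, against 567 and 53 in F60.

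**Figure D1:**
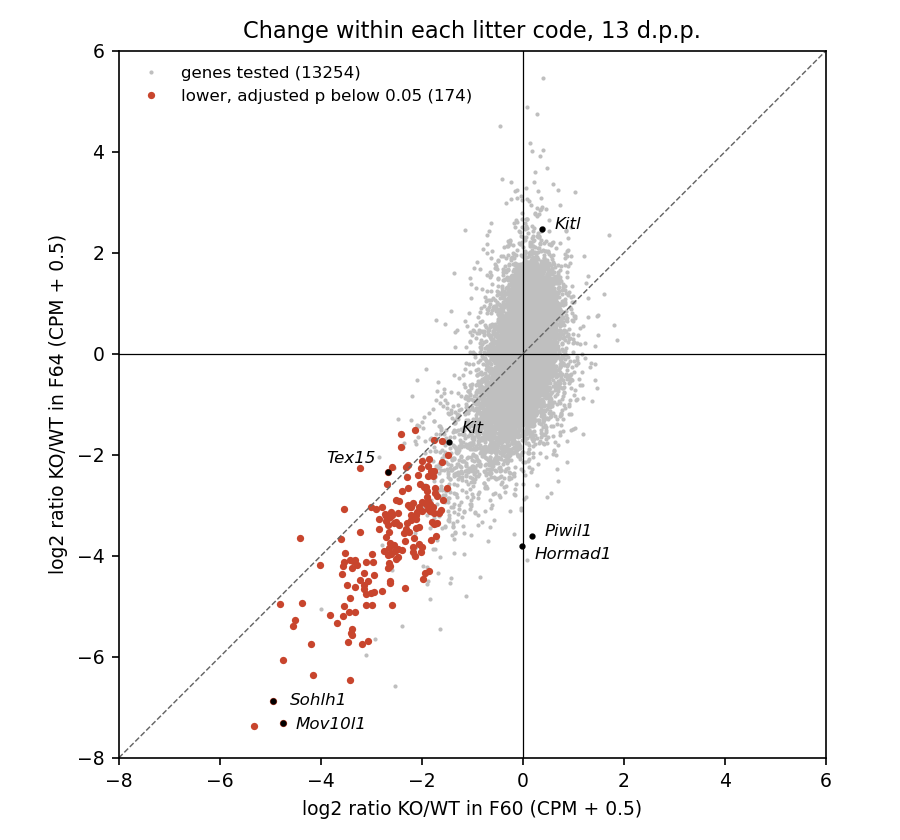
Each point is a tested gene (n = 13254), with the log2 ratio of knockout to wild type in litter code F60 on the x axis and in F64 on the y axis, both from CPM plus 0.5. Red points are the 174 genes lower at an adjusted p under 0.05 (edgeR), all in the lower left corner. *Piwil1* and *Hormad1* lie near 0 in F60 and below -3 in F64, and the cloud of all genes is taller than it is wide.

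Genes of spermatogonia ranged from *Sohlh1*, near 0 in both knockouts, to *Etv5*, whose levels overlapped between the genotypes. Of 14 listed genes of spermatogonia, all tested, 2 were called lower at 0.01, 8 were lower at 0.05, 9 were called lower with the block, and none was higher. Their median log2 fold change was -3.81. It was 0.02 for all genes, but most of those had no symbol and could not be listed. The summed level of the 14 genes was 213.9 and 346.8 CPM in the wild types and 62.5 and 69.7 CPM in the knockouts. Without wild-type F64, 7 of the 14 were called.

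*Sohlh1* (scaffold KB708281.1, 1515314 to 1519562, plus strand), a transcription factor of early spermatogonial differentiation, was at 19.4 and 72.6 CPM in wild-type F60 and F64 and at 0.141 and 0.122 CPM in the knockouts, which is 2 and 4 counts. It had the largest change of any called gene, with a log2 fold change of -8.37 (SE 0.85, adjusted p = 0.0097 in edgeR's test). *Sall4* (scaffold KB708174.1, 2585315 to 2604229, minus strand), a zinc-finger factor of undifferentiated spermatogonia, was at 21.6 and 22.5 CPM in the wild types and 0.282 and 0.244 CPM in the knockouts. Its libraries agreed closely within each genotype, and its log2 fold change was -6.37 (SE 0.45, adjusted p = 0.00697 in edgeR's test). *Trim71*, an RNA-binding ubiquitin ligase of early germ cells, was at 17.1 and 45.4 CPM against 0.493 and 0.0611 CPM, and missed the threshold of 0.01 at an adjusted p of 0.0134. *Uchl1*, a ubiquitin hydrolase that is abundant in spermatogonia, was at 6.10 and 15.9 CPM against 0.352 and 0.122 CPM (adjusted p = 0.0158 in edgeR's test). Both passed with the block, at adjusted p values of 2.9e-32 and 2.8e-15 in edgeR's test.

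Other genes of the list kept more of their level. *Kit*, the receptor of differentiating spermatogonia, which Leydig cells also express, was at 35.8 and 66.5 CPM in the wild types and 12.6 and 19.6 CPM in the knockouts (log2 fold change -1.65, SE 0.40, adjusted p = 0.124 in edgeR's test, 0.00033 with the block). *Zbtb16*, a marker of undifferentiated spermatogonia, was at 6.84 and 19.2 CPM against 2.82 and 5.74 CPM (adjusted p = 0.396 in edgeR's test, 0.0129 with the block). In *Zbtb16* knockout F64 was just below wild-type F60. *Etv5*, a transcription factor of spermatogonia and Sertoli cells, overlapped between the genotypes at 38.5 and 14.6 CPM against 26.4 and 21.1 CPM. Its adjusted p was 0.883 in edgeR's test.

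**Figure D2:**
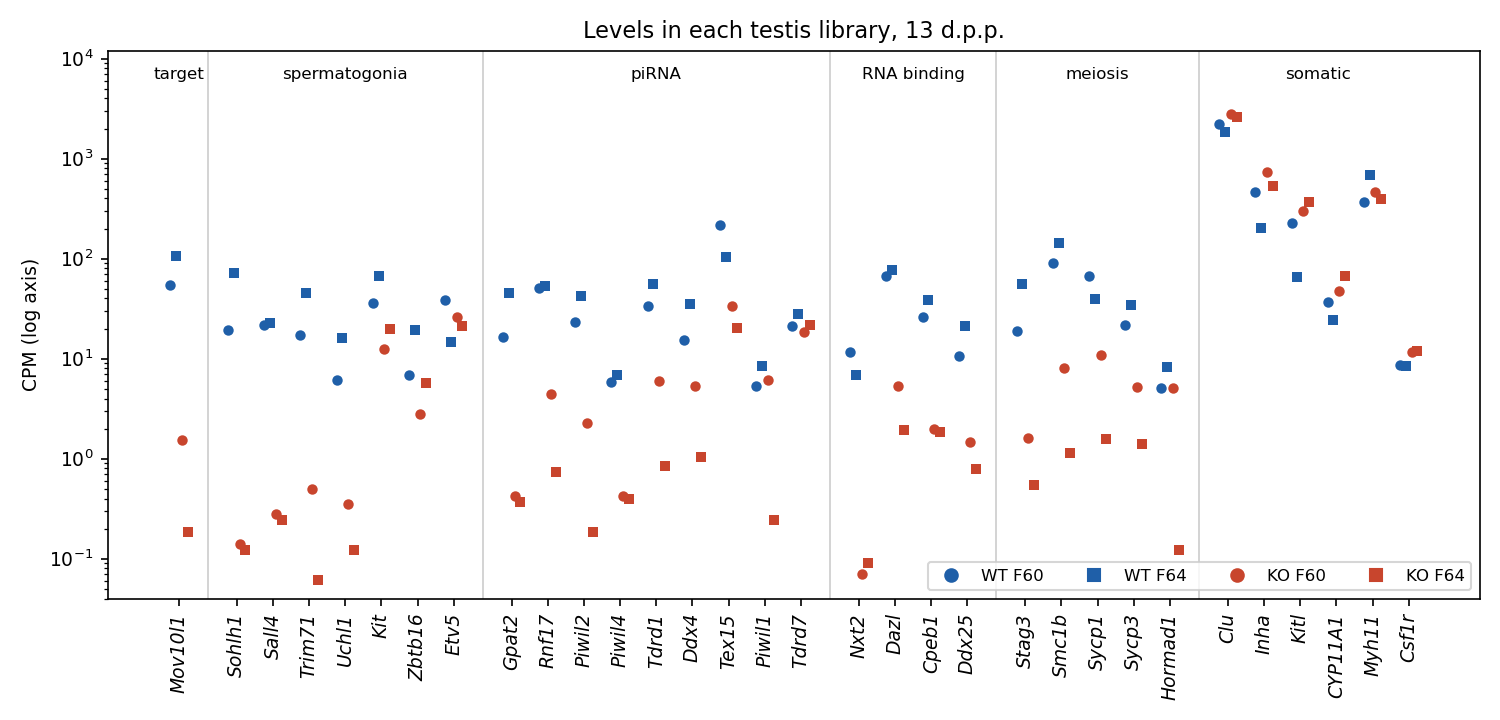
CPM of named genes in each of the 4 libraries on a log axis, in groups separated by grey lines. Blue stands for wild type and red for knockout, circles for litter code F60 and squares for F64. *Sohlh1*, *Sall4* and *Nxt2* are below 0.3 CPM in both knockouts, and *Piwil1* and *Hormad1* are at wild-type level in knockout F60 and low in knockout F64. In the somatic genes on the right, except *Myh11*, both knockouts are above both wild types, as in 23% of all tested genes. *Kitl* spans 65.4 to 367 CPM.

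In the piRNA pathway, in which *Mov10l1* itself acts, both knockouts were below both wild types in 17 of the 19 tested genes. That was so for 24% of all tested genes. Of 20 listed genes 19 were tested, 1 was called lower at 0.01, 7 were lower at 0.05 and 15 were called lower with the block, and none was higher. The median log2 fold change was -3.71, and the summed level was 519.6 and 529.6 CPM in the wild types and 96.6 and 51.5 CPM in the knockouts. Without wild-type F64, 9 were called.

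Among the PIWI proteins, which bind piRNAs, *Piwil2* was at 23.3 and 42.1 CPM in the wild types and 2.25 and 0.183 CPM in the knockouts (log2 fold change -4.92, SE 0.92, adjusted p = 0.0525 in edgeR's test, 1.9e-23 with the block). *Piwil4*, the nuclear PIWI protein, was at 5.89 and 6.87 CPM against 0.423 and 0.397 CPM (log2 fold change -3.93, SE 0.51, adjusted p = 0.0156 in edgeR's test). *Piwil1*, whose protein acts mainly in spermatocytes and spermatids of mice, differed between the knockouts more than between the genotypes, at 5.36 and 8.52 CPM in the wild types, 6.13 CPM in knockout F60 and 0.244 CPM in knockout F64 (adjusted p = 0.696 in edgeR's test). *Piwil3* was below the filter, at 0, 0.55, 0.352 and 0.0916 CPM.

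Tudor-domain proteins, the scaffolds on which PIWI proteins are loaded, had more transcript left in knockout F60 than in knockout F64, except *Tdrd7*. *Rnf17* was at 50.9 and 53.6 CPM in the wild types and 4.44 and 0.733 CPM in the knockouts (adjusted p = 0.0363 in edgeR's test). *Tdrd1* was at 33.8 and 56.1 CPM against 5.99 and 0.855 CPM (adjusted p = 0.074, and 1.1e-18 with the block, in edgeR's test). *Tdrd9*, which also carries a helicase domain, was at 10.8 and 28.9 CPM against 2.68 and 0.519 CPM (adjusted p = 0.0769, and 4.1e-12 with the block, in edgeR's test). None of these levels overlapped between the genotypes. *Tdrd7* stayed close, with 21.5 and 28.0 CPM in the wild types and 18.4 and 21.5 CPM in the knockouts (log2 fold change -0.30, SE 0.32, adjusted p = 0.725 in edgeR's test).

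*Gpat2* (scaffold KB708141.1, 7148948 to 7157388, plus strand), a mitochondrial acyltransferase homologue needed for primary piRNAs in mice, was the member called at 0.01. Its level was 16.4 and 45.9 CPM in the wild types and 0.423 and 0.366 CPM in the knockouts, with a log2 fold change of -6.28 (SE 0.64, adjusted p = 0.0097 in edgeR's test). *Mael*, a factor of germ granules, was at 48.0 and 25.0 CPM against 6.48 and 1.34 CPM (adjusted p = 0.0769, and 3.5e-15 with the block, in edgeR's test). *Tex15*, which acts in piRNA-directed DNA methylation, kept more, at 216 and 104 CPM against 33.8 and 20.2 CPM (log2 fold change -2.58, SE 0.45, adjusted p = 0.0427 in edgeR's test). *Henmt1*, the methyltransferase of piRNA 3′ ends, was at 2.00 and 4.40 CPM against 0.916 and 0.824 CPM, which is few counts, and did not pass with or without the block (adjusted p = 0.319 and 0.134 in edgeR's test). *Ddx4*, the germ-cell helicase known as VASA, was at 15.5 and 35.2 CPM in the wild types, 5.36 CPM in knockout F60 and 1.04 CPM in knockout F64 (log2 fold change -3.03, SE 0.75, adjusted p = 0.132 in edgeR's test, 3.6e-10 with the block).

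Of 18 germ-cell RNA-binding and RNA-export genes, all tested, 2 were called lower at 0.01, 7 were lower at 0.05, 15 were called lower with the block and none was higher. Their median log2 fold change was -3.86, and without wild-type F64 9 were called. *Ddx4* stands in this list and in that of the piRNA pathway. *Nxt2* (scaffold KB708255.1, 1455294 to 1469809, plus strand), a partner of RNA export receptors, was at 11.7 and 6.87 CPM in the wild types and 0.0705 and 0.0916 CPM in the knockouts, which is 1 and 3 counts (log2 fold change -6.67, SE 0.63, adjusted p = 0.00925 in edgeR's test). *Cpeb1*, which binds the cytoplasmic polyadenylation element of mRNAs, was at 26.1 and 39.0 CPM against 1.97 and 1.83 CPM (log2 fold change -4.09, SE 0.39, adjusted p = 0.00925 in edgeR's test). Those 2 genes had nearly equal levels in the knockouts.

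*Dazl*, an RNA-binding protein that germ cells need for their development, was at 67.6 and 76.7 CPM in the wild types and 5.36 and 1.92 CPM in the knockouts (log2 fold change -4.35, SE 0.51, adjusted p = 0.0133 in edgeR's test). *Ddx25*, a helicase of male germ cells, was at 10.7 and 21.2 CPM against 1.48 and 0.794 CPM (adjusted p = 0.0188 in edgeR's test). *Rbm44* was at 49.7 and 59.9 CPM against 6.13 and 0.702 CPM, and *D1Pas1*, a DEAD-box helicase, at 14.7 and 67.4 CPM against 2.11 and 0.214 CPM. Neither of these passed 0.05 (adjusted p = 0.0678 and 0.0641 in edgeR's test), and both passed with the block at 1.2e-22. *Nxf7*, an export receptor, had 13 counts over the wild types and 2 over the knockouts, a ratio of 0.0431 with a counting interval (exact, 95%) of 0.00472 to 0.19. *Nxf2*, a related export receptor, was at 46.9 and 25.6 CPM against 27.8 and 24.1 CPM and did not pass (adjusted p = 0.641 in edgeR's test).

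Most meiotic genes were low in knockout F64 and less so in knockout F60. Of all 13254 tested genes, 1215 were lower at an unadjusted p under 0.05 in edgeR's test. Among 15 genes of the meiotic chromosome axis and recombination, all tested, 13 were lower at that p. Of these 15, 0 were called lower at 0.01 in edgeR's test, 5 were lower at 0.05 and 13 were lower at 0.01 with the block. None was higher, DESeq2 called 9, and without wild-type F64 2 were called. The median log2 fold change was -3.16, and the summed level was 290.8 and 403.7 CPM in the wild types, 56.1 CPM in knockout F60 and 15.9 CPM in knockout F64. The cohesin subunits *Smc1b* and *Stag3* were at 91.6 and 142 CPM against 8.03 and 1.13 CPM, and at 18.9 and 55.8 CPM against 1.62 and 0.55 CPM (adjusted p = 0.0427 and 0.0187 in edgeR's test). *Sycp1*, the transverse filament of the synaptonemal complex, was at 67.2 and 39.3 CPM in the wild types, 10.8 CPM in knockout F60 and 1.56 CPM in knockout F64 (adjusted p = 0.131 in edgeR's test, 2.4e-16 with the block). *Sycp3*, of its lateral element, was at 21.9 and 34.6 CPM against 5.21 and 1.40 CPM (adjusted p = 0.0597 in edgeR's test, 6.7e-12 with the block). *Hormad1*, a chromosome axis protein, was at 5.15 and 8.25 CPM in the wild types, 5.07 CPM in knockout F60 and 0.122 CPM in knockout F64, so knockout F60 was level with wild-type F60 (adjusted p = 0.665 in edgeR's test, 0.0054 with the block).

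The 9 listed genes of later germ cells were mixed. Of the 8 tested, 1 was called lower at 0.01, 3 were lower at 0.05, 4 were called lower with the block and 3 without wild-type F64. *Slc25a31* (scaffold KB708146.1, 7745494 to 7761618, minus strand), the ADP/ATP carrier of germ-cell mitochondria, was at 46.2 and 58.8 CPM in the wild types and 1.48 and 0.916 CPM in the knockouts (log2 fold change -5.49, SE 0.42, adjusted p = 0.00697 in edgeR's test). *Cfap58*, a protein of sperm flagella, was at 7.47 and 15.7 CPM against 0.423 and 0.427 CPM, and *Tcfl5*, a transcription factor of spermatocytes, at 8.52 and 9.62 CPM against 1.41 and 0.733 CPM (adjusted p = 0.0133 and 0.0282 in edgeR's test). *Kcnu1*, a potassium channel of sperm, was at 5.68 and 6.32 CPM against 7.75 and 7.97 CPM and did not pass (adjusted p = 0.693 in edgeR's test). *Tex101* was at 0.841, 0.55, 1.48 and 0.0611 CPM, and *Odf1*, a sperm tail protein, was below the filter.

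**Figure D3:**
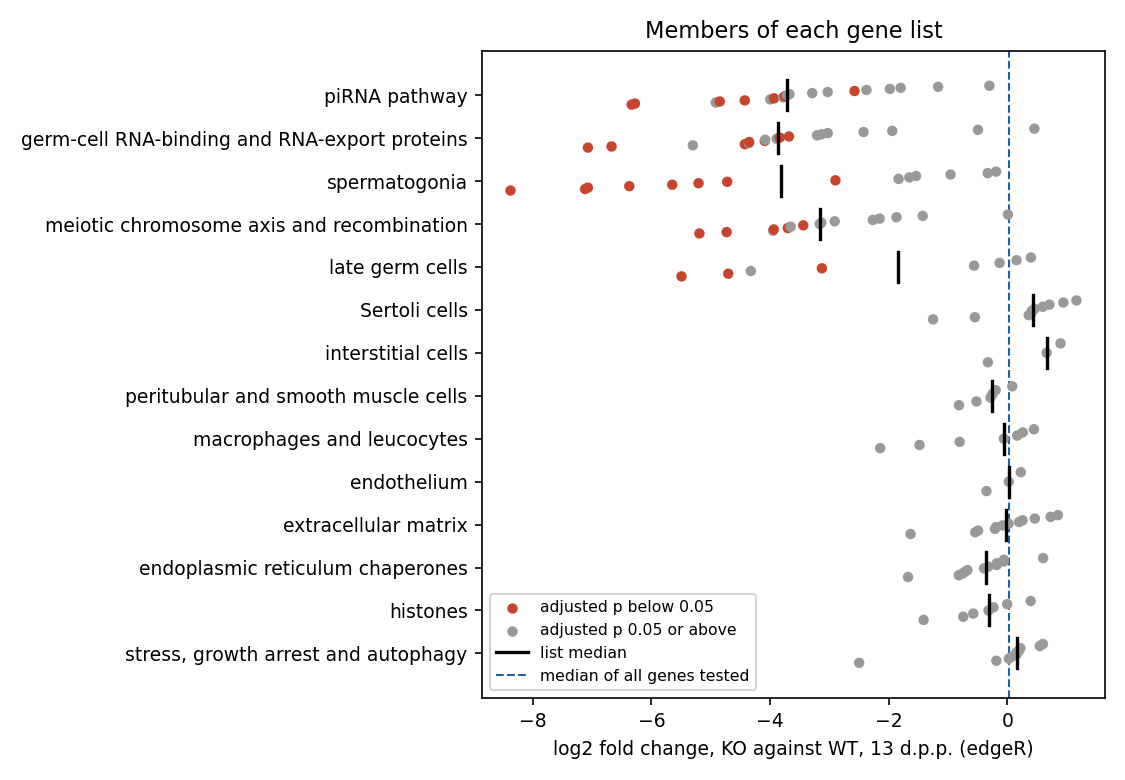
Log2 fold change of knockout against wild type at 13 d.p.p. for each tested member of each gene list, with 1 point per gene. Red points have an adjusted p under 0.05 (edgeR), black bars are list medians and the dashed blue line is the median of all tested genes (0.02). The medians of the first 4 lists lie between -3.86 and -3.16, and no member of the 9 lists from Sertoli cells down is red.

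Called genes outside these lists included *Dppa4*, a gene of pluripotent and early germ cells, at 8.10 and 7.42 CPM in the wild types and 0.211 and 0.122 CPM in the knockouts (log2 fold change -5.59, SE 0.57, adjusted p = 0.0097 in edgeR's test). *Fgfr3*, a growth factor receptor that undifferentiated spermatogonia express, was at 29.9 and 38.8 CPM against 2.40 and 1.59 CPM (log2 fold change -4.12, SE 0.40, adjusted p = 0.00925 in edgeR's test). *Map3k15*, a protein kinase, was at 27.6 and 26.9 CPM against 0.846 and 0.397 CPM (log2 fold change -5.55, adjusted p = 0.00834 in edgeR's test). *Mtmr7*, a phosphoinositide phosphatase, was at 16.5 and 26.4 CPM against 0.705 and 0.244 CPM, and *Gm15262* at 15.0 and 25.0 CPM against 1.06 and 1.01 CPM (adjusted p = 0.0097 for each in edgeR's test). Of the called genes without a symbol, ENSMAUG00000001808 was at 10.9 and 23.4 CPM against 0 and 0.122 CPM. ENSMAUG00000018096 had 127 counts over the wild types and 3 over the knockouts, a ratio of 0.00662 with an exact 95% counting interval of 0.00135 to 0.0198.

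Which knockout had the higher level varied by list. In 13 of the 15 meiotic genes, 17 of the 19 tested piRNA pathway genes and 15 of the 18 RNA-binding genes, knockout F60 was above knockout F64, as it was in 53% of all tested genes. Among the spermatogonial genes this was so in 7 of 14. Set against the wild type of the same litter code, the median level left for the meiotic genes was 18.5% in F60 and 3.7% in F64, for the piRNA pathway 13.5% and 4.29%, and for the spermatogonial genes 13.2% and 5.17%. Over all tested genes it was 101% and 102%. With 1 animal in each litter code and genotype, a difference between litter codes and one between animals cannot be told apart, and no test was made.

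**Figure D4:**
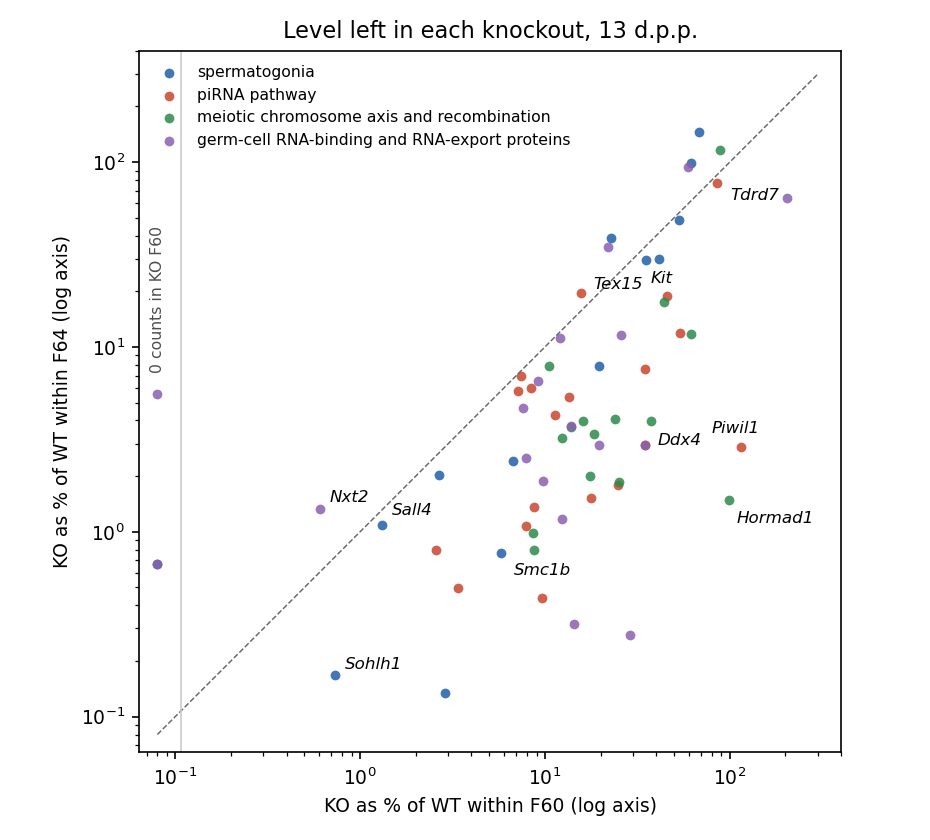
Level of each tested gene of 4 germ-cell lists in the knockout as a percentage of the wild type of the same litter code, F60 on the x axis and F64 on the y axis, both on log axes with the line of equality dashed. Points left of the grey line, *Lin28a* in 2 lists and *Nxf7*, had 0 counts in knockout F60. Most green (meiotic) and red (piRNA) points lie below the line, *Hormad1* and *Piwil1* farthest.

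Markers of somatic cells did not pass the test in either direction. Of 10 Sertoli cell genes, 3 interstitial, 6 peritubular, 7 macrophage and leucocyte and 3 endothelial genes, all tested, 0 passed 0.05 in edgeR's test, and with the block at 0.01 the 1 call was in the macrophage and leucocyte list. At an unadjusted p under 0.05, 2 of these 29 genes were lower and 2 higher. Of all 13254 tested genes, 1215 were lower and 128 higher at that p in edgeR's test. DESeq2 called 0 of the 29 genes at 0.01. The summed level of the Sertoli list was 3769 and 2781 CPM in the wild types and 4860 and 4594 CPM in the knockouts, so both knockouts were above both wild types, and 7 of the 10 genes did not overlap in that direction, which was so for 23% of all tested genes. *Kitl*, the ligand of the KIT receptor, was at 230 and 65.4 CPM in the wild types and 297 and 367 CPM in the knockouts (log2 fold change 1.17, SE 0.54, adjusted p = 0.523 in edgeR's test, 0.0108 with the block). Most of its difference lay in wild-type F64. *Clu*, a secreted Sertoli cell protein, was at 2198 and 1863 CPM against 2793 and 2593 CPM, and *Inha*, the alpha subunit of inhibin, at 461 and 203 CPM against 741 and 537 CPM (adjusted p = 0.732 and 0.54 in edgeR's test).

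*CYP11A1*, the first enzyme of steroid synthesis in Leydig cells, was at 37.0 and 24.2 CPM in the wild types and 47.8 and 67.0 CPM in the knockouts (adjusted p = 0.42 in edgeR's test). *Myh11*, a smooth muscle myosin of peritubular cells, was at 370 and 683 CPM against 469 and 396 CPM, and overlapped between the genotypes. *Csf1r*, the receptor that marks macrophages, was at 8.62 and 8.52 CPM against 11.6 and 11.8 CPM (adjusted p = 0.646 in edgeR's test). The summed interstitial list was at 171.2 and 144.1 CPM in the wild types and 204.8 and 200.4 CPM in the knockouts. Sums of the peritubular list were 769.1 and 1261 CPM against 897.5 and 785 CPM. The summed macrophage and leucocyte list was at 62.3 and 65.2 CPM against 57.1 and 61.9 CPM, and that of endothelium at 21.7 and 24.5 CPM against 20.5 and 24.2 CPM.

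Lists of stress and housekeeping processes gave 0 genes past 0.05 in edgeR's test as well, among 12 extracellular matrix genes, 12 endoplasmic reticulum chaperones, 7 histone genes and 10 genes of stress, growth arrest and autophagy. At an unadjusted p under 0.05, 4 of these 41 genes were lower and 1 higher, against 1215 and 128 of all 13254 tested genes. DESeq2 called 1 of the 41 genes lower at 0.01. The median log2 fold changes were -0.03, -0.36, -0.32 and 0.16. The chaperone list was highest in wild-type F64 and lowest in knockout F64, with sums of 3426 and 4941 CPM in wild-type F60 and F64 and 4177 and 2377 CPM in knockout F60 and F64. *Ddit4* and *Tp53inp2*, genes that respond to stress, were at 99.2 and 247 CPM against 122 and 242 CPM and at 72.9 and 14.8 CPM against 85.8 and 44.7 CPM, and neither passed (adjusted p = 0.96 and 0.755 in edgeR's test). *H1f1*, a linker histone, was at 438 and 1071 CPM against 332 and 236 CPM (adjusted p = 0.339 in edgeR's test, 0.0589 with the block).

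*Kif5c*, a kinesin motor whose gene neighbours *Lypd6b*, followed the litter codes and not the genotype, with 129 and 174 CPM in wild-type and knockout F60 and 31.6 and 24.2 CPM in wild-type and knockout F64 (adjusted p = 0.909 in edgeR's test). *Lypd6b* was below the filter, at 0.841, 0.275, 0.775 and 0.0611 CPM.

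The same genotypes were sequenced paired-end at 21 d.p.p. from other animals, an age at which wild-type testes hold spermatocytes. The interaction of genotype and age asks whether the change differs between 13 and 21 d.p.p. At 21 d.p.p. only the litter code F58 holds both genotypes. In the fit with the litter code as a block that pair alone therefore carries the change at 21 d.p.p. Of 14941 genes tested, 309 (2.07%) had a more positive change at 13 d.p.p. and 5 (0.0335%) a more negative one by edgeR's quasi-likelihood test at 0.01. Without knockout F60 the numbers were 63 and 0, without wild-type F64 239 and 29, and with the litter code as a block 335 and 7.

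The interaction passed, with a more positive change at 13 d.p.p., for 4 of the 15 meiotic genes, 3 of the 19 piRNA pathway genes, 3 of the 18 RNA-binding genes, 3 of the 9 genes of later germ cells and 1 of the 7 histone genes in edgeR's test. Another RNA-binding gene, *Cpeb1*, passed with a more negative change, and 0 of the 14 spermatogonial genes passed. Of those 14, 6 had an unadjusted p under 0.05 in edgeR's test, against 3552 of all 14941 genes. DESeq2 called 1 of the 14, against 968 of 14471 genes. *Ddx4* was at 15.5 and 35.2 CPM against 5.36 and 1.04 CPM at 13 d.p.p. and at 337 and 214 CPM against 0.101 and 0.295 CPM at 21 d.p.p. (difference of log2 fold changes 7.22, SE 1.05, adjusted p = 0.00444 in edgeR's test). *Sycp1* was at 538 and 403 CPM against 0.963 and 1.11 CPM at 21 d.p.p. (difference 5.66, adjusted p = 0.00895 in edgeR's test). *Hormad1* was at 237 and 208 CPM against 0.0507 and 0.227 CPM at 21 d.p.p. (difference 8.90, adjusted p = 0.00959), and *Piwil1* at 358 and 154 CPM against 0.304 and 0.182 CPM (difference 8.95, adjusted p = 0.00886, both in edgeR's test). With each age scaled by itself, the wild-type level of these 4 genes was far higher at the later age and the mean of the knockouts lower.

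*Ybx2*, a Y-box protein that stores mRNAs in germ cells, was at 4.10 and 3.02 CPM in the wild types and 8.31 and 1.92 CPM in the knockouts at 13 d.p.p. and at 358 and 136 CPM against 0.609 and 0.59 CPM at 21 d.p.p. (difference 9.13, adjusted p = 0.00171 in edgeR's test). *Ptchd3*, a Patched-domain protein of sperm, was at 2.10 and 0.55 CPM against 6.69 and 0.153 CPM at 13 d.p.p. and at 273 and 259.9 CPM against 0.152 and 0.182 CPM at 21 d.p.p. (difference 11.57, adjusted p = 0.00505 in edgeR's test). *Tex101* was at 61.8 and 55.3 CPM against 0 and 0.114 CPM at 21 d.p.p. (difference 9.21, adjusted p = 0.00734 in edgeR's test). *Lypd9* was below 0.3 CPM in all 4 libraries of 13 d.p.p. The 21 d.p.p. libraries held 11.6 and 6.37 CPM in the wild types and 0 in both knockouts, at least 174-fold lower against 3 counts over the knockouts. Its difference passed at an adjusted p of 0.00687 in edgeR's test.

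The genes with a symbol whose change was more negative at 13 d.p.p. were 3. *Cpeb1* was at 26.1 and 39.0 CPM against 1.97 and 1.83 CPM at 13 d.p.p. but at 63.9 and 66.0 CPM against 37.9 and 31.9 CPM at 21 d.p.p. (difference -3.12, SE 0.37, adjusted p = 0.00192 in edgeR's test). *Cacng4*, a calcium channel subunit, was at 6.94 and 6.60 CPM against 0.423 and 0.366 CPM and then at 4.62 and 4.17 CPM against 1.98 and 2.29 CPM (difference -3.01, adjusted p = 0.00932 in edgeR's test). *Col9a2*, a collagen chain, was at 37.1 and 47.3 CPM against 47.4 and 33.4 CPM at 13 d.p.p. and at 4.07 and 7.01 CPM against 28.5 and 30.6 CPM at 21 d.p.p. (difference -2.39, adjusted p = 0.00963 in edgeR's test). All 3 lost their call without knockout F60, where no gene passed in that direction.

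**Figure D5:**
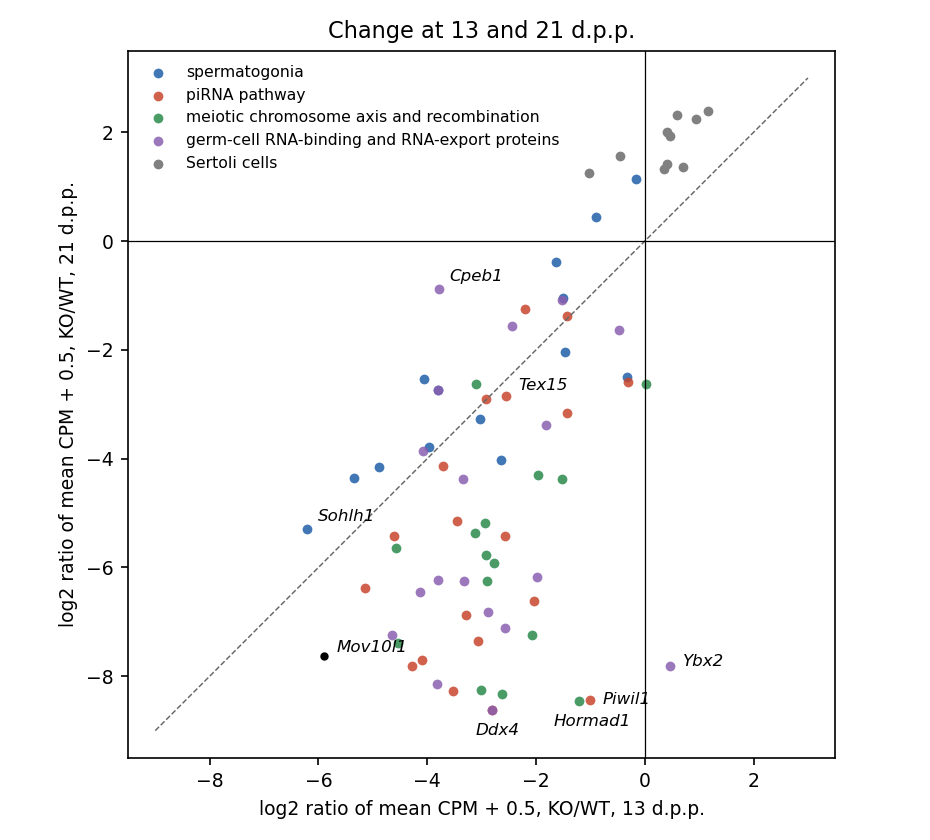
Log2 ratio of mean CPM plus 0.5, knockout over wild type, at 13 d.p.p. on the x axis and 21 d.p.p. on the y axis, for tested genes of 4 germ-cell lists, Sertoli cell genes in grey and *Mov10l1* in black, with the line of equality dashed. Most meiotic and piRNA genes lie below the line, *Piwil1*, *Hormad1* and *Ybx2* farthest to the right of it. *Cpeb1* lies above it, and the Sertoli genes lie between 1.25 and 2.40 on the y axis.

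Mean levels of the 174 genes at other ages are given side by side, with no test, and at 9 d.p.p. the knockout mean is that of 1 animal. At 9 d.p.p. 172 of the 174 were lower in the knockout mean and 57 were at least 2-fold lower, with a median log2 ratio of -0.84. At 0 d.p.p. 41 were lower, 4 of them at least 2-fold, and the median was 0.42. At 21 d.p.p. all 174 were lower and 166 were at least 2-fold lower (median -3.21), and in adults 129 were lower and 87 at least 2-fold lower (median -1.01). Over all genes tested at 13 d.p.p. the share that was lower was 45.6% at 0 d.p.p., 44.5% at 9 d.p.p., 45.4% at 21 d.p.p. and 42.8% in adults, with medians from 0.02 to 0.32.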

How the data were processed

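RNA of whole testes was depleted of ribosomal RNA and sequenced from stranded libraries, although the labels give the molecule as polyA RNA. Reads were 150-nucleotide paired-end at 13 and 21 d.p.p. and in adults. At 0 and 9 d.p.p. they were shorter and single-end. The authors aligned reads to MesAur1.0 with STAR 2.7.3a, allowing multiple alignments, and counted them over Ensembl release 99 genes with featureCounts 2.0.0, by strand. The table the authors deposited holds these estimated counts as they are, with no normalization. Multimapping and multi-overlapping reads were split into fractions, so counts of near-identical or overlapping genes are uncertain.

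Estimated counts were rounded. edgeR 4.0.16 in R 4.3.3 fitted the 4 libraries, with TMM, edgeR's filter on low counts, the quasi-likelihood test and Benjamini-Hochberg adjustment. Genes were called at an adjusted p below 0.01, with 0.05 beside it. The interaction with age was fitted over 8 libraries. Alternatives were DESeq2 1.42.0, RLE factors, other filters, thinning to the smallest library, a joint fit of 12 libraries, the litter code as a replicate block, and leaving out each library. Deviations of libraries of the same litter code from their group means correlated at 0.152. Scripts were tested on simulated data. Figures used Python 3.11.15 and matplotlib.

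The members, lists and tests were chosen with earlier results of these data known. Symbols came from the study's supplementary gene tables (1042 identifiers, 3 more by description), with no sequence of these genes in hand. A rule took from each of 15 lists (146 genes) the 4 genes highest in CPM and each called gene. It added *Mov10l1*, the 10 genes with the largest change among called genes with a symbol and at most 2 genes without a symbol. At most 5 interaction genes in each direction and genes the study names were also taken. That gave 88 genes, of which 63 are described and the other members are counted with their lists. The rule did not fix which 63 of the 88 were described, so for some lists not all of the 4 highest genes are named. Beyond these, *Lin28a*, *Gadd45b*, *Bin2* and *Fbln1* were chosen after their values were seen. p-values of the main fit rest on the spread between 2 animals per genotype, drawn towards that of all genes. Those with the block rest on the spread left after the litter codes, and those of the interaction on 8 libraries. Counting intervals cover counting error only.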

Additional observations from a re-analysis of the deposited data

Results flagged for a closer look

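The change of genotype differed between 13 and 21 d.p.p. by a test of the interaction for 309 genes that were more positive at 13 d.p.p. and 5 that were more negative, at 0.01 by edgeR's quasi-likelihood test over 8 libraries. Among the genes whose values are given above, the difference of log2 fold changes was 11.57 for *Ptchd3*, 10.06 for *Lypd9*, 9.21 for *Tex101*, 9.13 for *Ybx2*, 8.95 for *Piwil1* and 8.90 for *Hormad1*. It was 7.22 for *Ddx4*, 5.66 for *Sycp1* and 2.27 for *Kcnu1*, the last with an adjusted p of 0.00786 in edgeR's test, and at 21 d.p.p. *Kcnu1* had means of 14.6 CPM in the wild types and 4.16 CPM in the knockouts. The value of *Lypd9* depends on the count that edgeR adds to 0 and is no bound. The other way went *Cpeb1* at -3.12, *Cacng4* at -3.01 and *Col9a2* at -2.39. *Kcnu1* was at 7.97 CPM and *Cpeb1* at 1.83 CPM in knockout F64, near their 7.75 and 1.97 CPM in knockout F60. Some of the other genes had a higher level in knockout F60. *Piwil1* and *Hormad1* were at 6.13 and 5.07 CPM there and 0.244 and 0.122 CPM in knockout F64, and the count of positive differences was 63 without knockout F60 and 269 without knockout F64. The part of knockout F60 in the single values was not tested. Groups of 2 libraries are too small for a check of outlying samples.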

How the results depend on the processing

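With 2 animals per genotype, a 9.69-fold range of depth that runs with genotype and 1 library that stands apart, the number of calls was not stable. Most calls at 0.01 were lower in each alternative, but without wild-type F60 the calls at 0.05 were 1377 lower and 1265 higher. Of the 16 genes called lower, all 16 were called in each alternative except with at least 10 counts in every library (4 of 16, where genes near 0 in the knockouts drop out) and after thinning (9 of 16). Levels under about 1 CPM rest on few counts.

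Genes called lower numbered 25 with RLE factors, 428 with no filter, 4 with at least 10 counts in every library, 267 with DESeq2, 341 in the joint fit of 12 libraries and 174 at the threshold of 0.05. Genes called higher numbered 3 with no filter and 1 in the joint fit. With the litter code as a replicate block, 458 genes were lower and 19 higher in the quasi-likelihood test, 543 and 25 in edgeR's likelihood ratio test and 216 and 0 in DESeq2. At 0.05 the lower genes numbered 561 with no filter, 42 with at least 10 counts, 359 with DESeq2, 684 in the joint fit, and 641, 720 and 298 in the same 3 fits with the block. Leaving out 1 library gave 89 to 181 lower and 0 to 39 higher genes at 0.01, and 145 to 1377 lower and 0 to 1265 higher genes at 0.05. The 39 and the 1265 higher genes and the 1377 lower genes came without wild-type F60, where wild-type F64 alone stands for its genotype and is assumed to vary like the knockouts.

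*Mov10l1* had log2 fold changes of -6.59 with no filter, -6.59 with DESeq2, -6.87 with the block in both edgeR tests, -7.04 with the block in DESeq2, -6.54 after thinning, -6.76 in the joint fit and -8.70 to -5.68 when 1 library was left out, all past 0.01. With RLE factors its adjusted p was 0.0131, and with at least 10 counts in every library it was not tested.

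The interaction had 871 more positive and 456 more negative genes with no filter, 186 and 2 with at least 10 counts, 819 and 149 with DESeq2, 154 and 1 after thinning, and 2 negative genes with RLE factors. Leaving out 1 library of 13 d.p.p. gave 63 to 364 positive and 0 to 68 negative genes.

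Signs turned for genes that did not pass the test. *Col9a2* was at a log2 fold change of 0.10 with no filter, 0.026 with DESeq2, 0.013 with DESeq2 and the block, 0.029 after thinning and 0.019 in the joint fit, *Etv5* was at 0.057 with DESeq2 and the block, and *Tex101* was at 0.026 with no filter and 0.14 with DESeq2. Leaving out 1 library gave log2 fold changes from -0.31 to 0.18 for *Col9a2*, -0.49 to 0.89 for *Ddit4*, -0.70 to 0.74 for *Etv5*, -1.72 to 1.68 for *Kif5c*, -0.62 to 0.23 for *Myh11*, -0.85 to 0.063 for *Nxf2*, -3.17 to 2.57 for *Ptchd3*, -0.34 to 1.003 for *Tex101*, -0.17 to 2.17 for *Tp53inp2* and -0.89 to 1.20 for *Ybx2*. The values of *Ptchd3* and *Ybx2* below 0 came without knockout F60. The cause of these differences was not tested. Of 726 values of named genes under the alternatives, 508 kept direction and side of the threshold, 187 passed it only in the alternative and 9 lost it.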

Other observations

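In the lists of somatic cells, stress and housekeeping, where no gene passed 0.05, 3 genes were called lower at 0.01 with the litter code as a block, and were chosen after their values were seen. *Gadd45b*, which responds to stress and DNA damage, was at 7.78 and 16.5 CPM in the wild types and 2.25 and 1.95 CPM in the knockouts (log2 fold change -2.50, adjusted p = 0.057 in edgeR's test, 1.8e-05 with the litter code as a block). *Bin2*, a membrane-shaping protein of leucocytes, was at 5.99 and 6.05 CPM against 1.41 and 1.31 CPM (log2 fold change -2.14, adjusted p = 0.0704 in edgeR's test, 0.00553 with the block). *Fbln1*, an extracellular matrix protein, was at 8.20 and 15.7 CPM against 3.24 and 4.24 CPM (log2 fold change -1.63, adjusted p = 0.172 in edgeR's test, 0.00781 with the block). In each of them both knockouts were below both wild types, as in 24% of all tested genes. The medians of their lists were 0.16, -0.06 and -0.03.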
